A study of Mus musculus with 4 samples.

Results

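The collagen chain genes were taken as the protein-coding genes of the count table whose symbol is Col, a number, the letter a and a number, such as Col1a1. The rule found 44 genes among 54532. Their transcripts were read by poly(A)-selected RNA sequencing of Dll1-positive tumor cells of C57BL/6 mice, from primary breast tumors. Both groups are labelled MMTV-PyMT, a transgene in which a promoter active in mammary epithelium drives a viral oncogene, and carry an mCherry reporter of Dll1, a ligand of Notch receptors. The tumors came from injection of PyMT-Dll1+ cells at a site abbreviated MFP. The unirradiated group had no radiation and the irradiated group had targeted radiation at day 30, with 2 libraries in each. Radiation dose and mouse age were not stated. No label ties the libraries to separate mice, and p-values here cover library-to-library spread, which may be technical.

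Collagens are secreted or membrane proteins whose chains wind into a helix that needs glycine at every 3rd residue. Fibrillar collagens, such as types I, III, V and XI, form the tensile fibrils of stroma and cartilage and are made mostly by mesenchymal cells. Type IV collagen is the sheet-like network of basement membranes, which underlie epithelium and surround vessels. Types VII and XVII anchor epithelium: type VII forms the anchoring fibrils under the basement membrane, and type XVII is a transmembrane chain of hemidesmosomes. In mammary tumors the fibrillar collagens are best known as products of cancer-associated fibroblasts.

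The repeat shared by all these chains can be read in their coding sequence, which the rule did not use. Each chain's longest coding sequence in GENCODE M21 (GRCm38) was searched for in-frame triplets that begin with a glycine codon, GGN. A run of at least 20 such triplets was present in 44 of 44 collagens and in 64 of 21898 protein-coding genes (0.292%), those 44 included. The first 10 triplets of the longest run of 1 chain from each of 4 classes are shown, to let the shared repeat be seen, with the repeat's glycine codons in capitals.
Col3a1, fibrillar: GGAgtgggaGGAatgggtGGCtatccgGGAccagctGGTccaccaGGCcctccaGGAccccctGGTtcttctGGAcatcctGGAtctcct
Col4a1, basement membrane: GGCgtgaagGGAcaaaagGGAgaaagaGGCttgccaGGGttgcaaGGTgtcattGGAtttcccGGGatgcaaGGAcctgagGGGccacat
Col17a1, epithelial anchoring: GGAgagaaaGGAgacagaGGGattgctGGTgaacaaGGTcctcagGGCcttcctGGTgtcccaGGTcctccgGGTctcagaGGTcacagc
Col9a2, fibril-associated: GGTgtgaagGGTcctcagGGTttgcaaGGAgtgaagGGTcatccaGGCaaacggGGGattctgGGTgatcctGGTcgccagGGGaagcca

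The classes differ in how long this repeat runs without a break. The longest run was 216 to 344 triplets in the 11 fibrillar chains and 39 to 66 in the 6 type IV chains. It was 75 triplets in Col7a1 and 56 in Col17a1. Col4a1 had 23 separate runs of at least 3 triplets, against 2 in Col1a1 and 2 in Col3a1. Col24a1 and Col27a1, at 216 and 217 triplets, were the shortest of the fibrillar chains, whose other members were at 337 to 344. After a break each had a further run of 93 triplets.

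**Figure D1:**
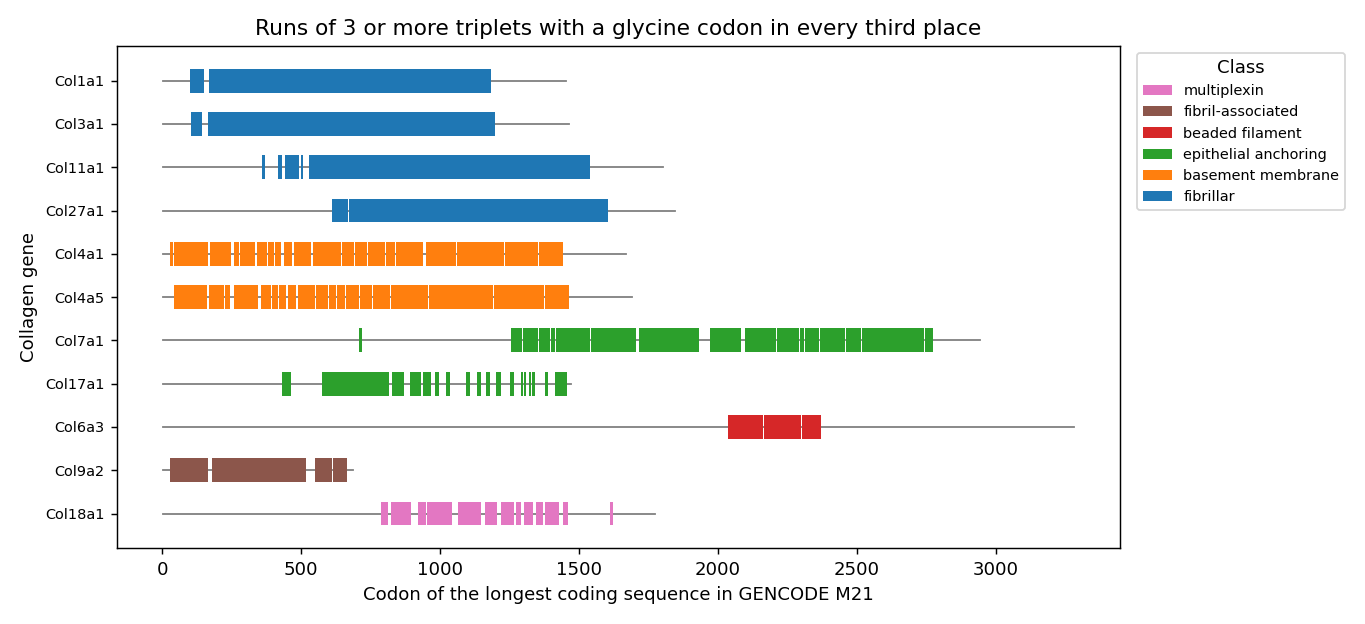
Runs of at least 3 triplets with a glycine codon in every 3rd place (bars, colored by class) along the coding sequence (grey line, in codons) of 11 collagens. The fibrillar chains hold 1 long run, of 338 triplets in Col1a1, except Col27a1, with runs of 217 and 93 triplets. The type IV chains hold many short runs. Breaks of a few codons are too thin to see.

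The libraries held 16811888 to 20817997 counts. CPM, counts divided by library size and scaled to a common total, use TMM, a between-library normalization, with n = 2 libraries per group throughout. The sort was with antibodies against CD45, CD31 and TER119, and markers of the cells it targets were compared with epithelial ones. Epithelial markers were high in each library, with Epcam at 1447 and 1403 CPM without radiation and 1291 and 1089 CPM with it. Irradiated 2 stood apart: Ptprc, which encodes CD45, was at 2.41 and 1.18 CPM without radiation, then 9.63 and 77.2 CPM in irradiated 1 and 2, and Pecam1, which encodes CD31, at 6.98, 4.95, 9.48 and 158 CPM. Biological variation over all tested genes (edgeR's common BCV) was 5.93% for the unirradiated pair and 39.8% for the irradiated pair. Each irradiated library is therefore given by itself, and the contrast of the groups beside it. In sorted cell mixtures, fewer cells of a type and less RNA per cell cannot be told apart.

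In the unirradiated libraries the most abundant collagen RNAs per length were not those of stromal fibrils. Col9a2, a chain of type IX collagen, which coats cartilage fibrils, was highest at 88.3 ± 1.09 CPM per kilobase of gene length (SD, n = 2), ahead of its partner chains Col9a3 at 36.9 ± 0.501 and Col9a1 at 36.1 ± 1.09. The basement membrane chain Col4a1 followed at 31.7 ± 1.55 and Col1a1, the main chain of type I collagen, at 27.2 ± 0.973. Col9a3 and Col9a1 differ by less than 1 SD, as do Col4a5 at 24.8 ± 1.86 and Col4a2 at 24.6 ± 2.01. With the length of 1 coding transcript in place of the deposited gene length Col9a2 again ranked 1 of 44, and Col3a1 moved from 9 to 4. In irradiated 2 the order by gene length was led by Col1a1, Col3a1 and Col1a2, and by transcript length by Col3a1, Col1a1 and Col1a2. Col9a2 ranked 6 there by either length.

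Summed over the 44 genes, collagen RNA was at 2540 and 2709 CPM without radiation, then 3172 and 9363 CPM in irradiated 1 and 2. Most of that difference lay in the fibrillar class, whose sum was 793 and 839.8 CPM without radiation, then 1166 and 5963 CPM in irradiated 1 and 2. The type IV sum was 644 and 711 CPM, then 711 and 1539 CPM. The epithelial anchoring pair was high in the other irradiated library, at 95.2 and 112 CPM without radiation, then 192 and 85.1 CPM in irradiated 1 and 2. The fibril-associated sum hardly moved, at 803 and 823 CPM, then 815 and 814 CPM. Within it, Col14a1 and Col12a1 were higher in irradiated 2 and the type IX chains lower. Per kilobase of gene length that sum was 189 and 191 CPM without radiation, then 190 and 163 CPM in irradiated 1 and 2.

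**Figure D2:**
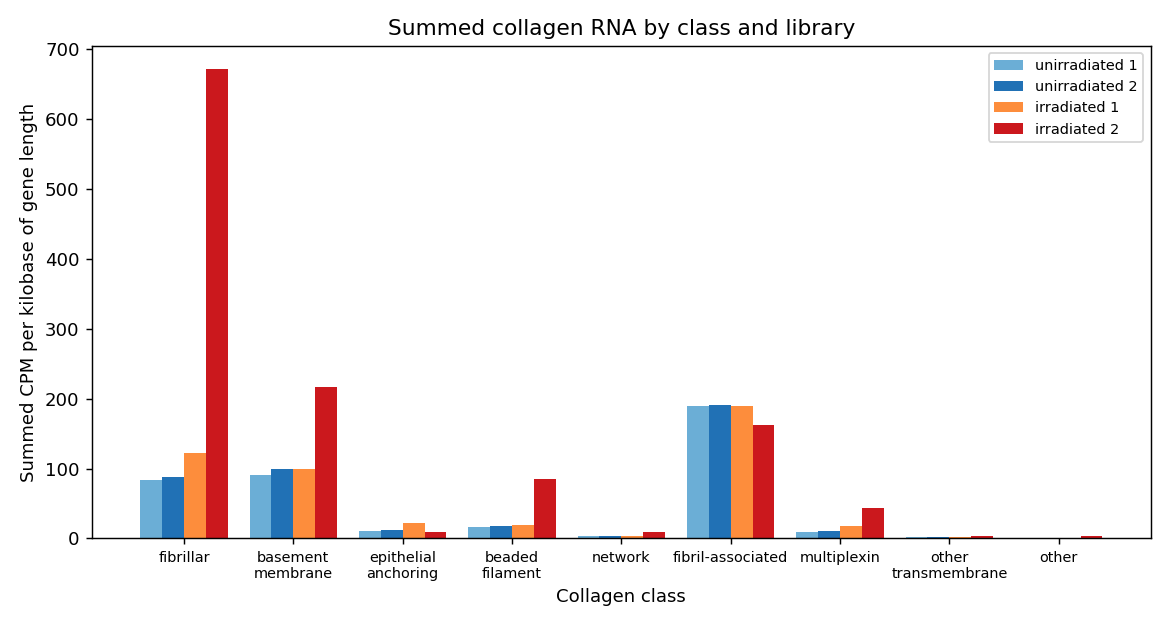
Summed CPM per kilobase of gene length (bars from 0) for 9 collagen classes in each of the 4 libraries, without error bars since each bar is 1 library. The fibrillar bar of irradiated 2 reaches 671 against 83.3 and 88.3 in the unirradiated libraries.

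The comparison asks how expression in Dll1-positive tumor cells differed after radiation. Of the 44 collagens 38 passed the filter on low counts. The edgeR quasi-likelihood test, adjusted over 15993 genes, called 0 collagens higher and 0 lower, as it did for all genes (0% each way), with 9 of the 38 at an unadjusted p under 0.05 (9.25% of all genes). DESeq2 called 2 higher, Col18a1 and Col13a1 (2.76% of all genes), and 1 lower, Col9a1 (0.306%), and limma-voom called 0 each way. In 18 of the 38 the irradiated pair lay wholly above the unirradiated pair (20.3% of all genes), and in 3 wholly below it (20.0%). Over all 44, tested or not, the counts were 20 and 3 (8.12% and 8.33% of all 54532 genes). The median log2 fold change was 0.97 over the 38 and 0.0040 over all genes. Since the filter and this median depend on which library is high, the irradiated libraries are set apart below.

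Left as the single irradiated library, irradiated 2 differed from the unirradiated pair in 28 of 39 tested collagens by edgeR, 20 higher (15.9% of all genes) and 8 lower (7.95%). Irradiated 1 differed in 15 of 39, 13 higher (11.9%) and 2 lower (13.9%). These fits take the lone library to vary as little as the unirradiated pair, so their counts do not speak for radiation. Between irradiated 1 and irradiated 2 themselves 24 of the 38 collagens differed by over 2-fold (15.4% of all genes). Between the unirradiated libraries 2 did (522 of all 15993 genes), Col24a1 at 1 and 15 counts and Col13a1 at 9 and 1. Of the 24, 20 were higher in irradiated 2 (11.5%) and 4 in irradiated 1 (3.92%). Against the unirradiated mean 20 of 38 were over 2-fold higher in irradiated 2 (9.75%) and 7 in irradiated 1 (5.88%).

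**Figure D3:**
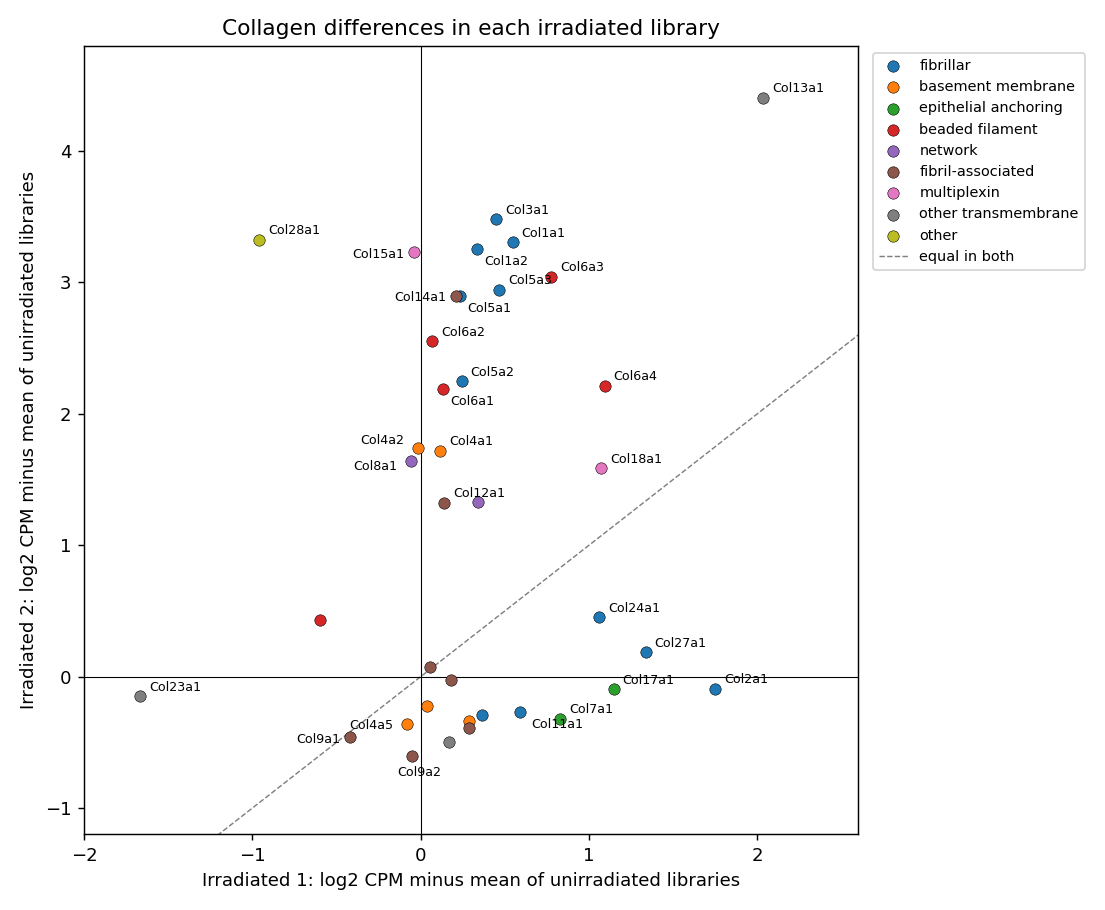
Each point is 1 of 38 tested collagens, placed by its log2 CPM in irradiated 1 (x axis) and in irradiated 2 (y axis) minus the mean of the unirradiated libraries. Type I, III and V chains stand high on the y axis, as do the tested type VI chains other than Col6a6 (0.43). The epithelial pair and Col27a1 and Col2a1 lie along the x axis, and Col18a1 and Col13a1 are high on both.

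Fibrillar chains fell into 2 patterns. Col3a1, the chain of type III collagen, was at 194 and 204 CPM without radiation, then 271 and 2224 CPM in irradiated 1 and 2. Col1a1 was at 174 and 183 CPM, then 261 and 1766 CPM. Col1a2, the second chain of type I collagen, was at 135 and 136 CPM, then 171 and 1297 CPM. For each of these the irradiated libraries lay above the unirradiated ones, by 1.26 to 1.46 times their mean in irradiated 1 and 9.57 to 11.2 times in irradiated 2. Their log2 fold changes were 2.65 (SE 0.96), 2.504 (SE 0.88) and 2.44 (SE 0.92), with edgeR adjusted p of 0.514, 0.51 and 0.525.

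The type V chains, which join type I fibrils and set their width, followed the same order. Col5a1 was at 24.3 and 29.4 CPM without radiation, then 31.5 and 200.1 CPM in irradiated 1 and 2. Col5a2 was at 44.5 and 48.7 CPM, then 55.1 and 221 CPM, and Col5a3 at 7.03 and 8.96 CPM, then 10.997 and 61.8 CPM. The groups did not overlap for these chains, and their adjusted p by edgeR lay between 0.518 and 0.546.

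Col11a1, which encodes the chain that nucleates cartilage fibrils, behaved differently. It was at 175 and 187 CPM without radiation, then 272 and 150.4 CPM in irradiated 1 and 2. Per kilobase its level was 0.518 and 0.526 of that of Col1a1 without radiation, 0.538 in irradiated 1 and 0.0439 in irradiated 2, and by transcript length 0.778, 0.789, 0.808 and 0.0659. The unirradiated values lay between the irradiated ones. Its partner Col11a2 was at 9.86 and 10.3 CPM, then 13.0 and 8.21 CPM. Col27a1, a minor fibrillar chain, was at 25.2 and 28.4 CPM, then 67.6 and 30.4 CPM, and Col2a1, the main chain of cartilage fibrils, at 4.04 and 2.89 CPM, then 11.8 and 3.20 CPM. Both were highest in irradiated 1, with Col2a1 in irradiated 2 inside the unirradiated range and Col27a1 slightly above it. Their log2 fold changes were 0.87 (SE 0.38, edgeR adjusted p = 0.579) and 1.11 (SE 0.66, adjusted p = 0.688). Col24a1 had 1, 15, 14 and 8 counts in the 4 libraries, too few to order.

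The 120 bases before the RefSeq start site (GRCm38.p6) are shown for 4 chains that separate these patterns. Col3a1 and Col5a1 were high in irradiated 2. Col11a1 and Col7a1 were not, and were highest in irradiated 1. Capitals mark matches to any of 4 motifs, searched on both strands. The CCAAT box is spelled as in its name. The spelling used for the GC box was GGGCGG. For the TATA box it was TATAAA, and for a Sox-type motif it was AACAAT. No motif contains another.
Col3a1, chr1:45311418-45311537, plus strand: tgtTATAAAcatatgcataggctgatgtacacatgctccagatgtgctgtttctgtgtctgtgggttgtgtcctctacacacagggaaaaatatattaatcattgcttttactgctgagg
Col5a1, chr2:27886305-27886424, plus strand: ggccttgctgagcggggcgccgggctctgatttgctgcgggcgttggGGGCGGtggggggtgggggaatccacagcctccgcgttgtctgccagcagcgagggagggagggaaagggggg
Col11a1, chr3:114030420-114030539, plus strand: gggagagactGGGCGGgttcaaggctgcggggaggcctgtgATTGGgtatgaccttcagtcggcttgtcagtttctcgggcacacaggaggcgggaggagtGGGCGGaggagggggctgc
Col7a1, chr9:108953466-108953585, plus strand: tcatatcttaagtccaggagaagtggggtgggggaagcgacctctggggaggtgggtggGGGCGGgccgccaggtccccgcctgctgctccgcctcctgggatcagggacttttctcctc

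No RefSeq promoter was matched for Col1a1, Col2a1, Col4a3, Col5a2, Col9a3, Col12a1, Col14a1, Col22a1 and Col26a1. Among these, Col1a1, Col5a2, Col12a1 and Col14a1 were high in irradiated 2. RefSeq promoters were matched for the other 35 of the 44 genes, as 38 promoters. In the 250 bases before the start site the GC box was found in 57.9% of them against 32.7% of 32851 promoters of all genes. The CCAAT box was found in 34.2% against 33.9%, the TATA box in 13.2% against 12.4% and the Sox-type motif in 2.63%, which is Col3a1 alone, against 9.42%. The GC box was present both in Col5a1, high in irradiated 2, and in Col7a1 and Col11a1, which were not high there.

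Type IV chains split by pair. In the genome they lie head to head. Col4a1 ends at 11312826 and Col4a2 starts at 11312805 on chromosome 8, so that they share 22 bases, and Col4a6 and Col4a5 lie 1308 bases apart on chromosome X (mm10, positions as in the files). Col4a1, of the network found in nearly all basement membranes, was at 228 and 245 CPM without radiation, then 256 and 777 CPM in irradiated 1 and 2. Col4a2, its partner, was at 153 and 172 CPM, then 160.3 and 543 CPM. In irradiated 1 Col4a1 lay slightly above both unirradiated libraries and Col4a2 inside their range. In irradiated 2 they were 3.29 and 3.34 times the unirradiated mean, at log2 differences of 1.72 and 1.74. For the contrast of the groups the edgeR adjusted p was 0.591 and 0.631.

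Col4a5 and Col4a6 make the other type IV network of mammary basement membrane, around myoepithelium. Col4a5 was at 157 and 175 CPM without radiation, then 157 and 129 CPM, and Col4a6 at 103 and 117 CPM, then 134 and 86.9 CPM. Neither was high in irradiated 2, where both lay below the unirradiated libraries. The chains of the specialized networks of kidney were low. Col4a4 was at 2.21 and 1.83 CPM, then 2.07 and 1.71 CPM. Col4a3 had 1, 6, 32 and 6 counts and was not tested. Its exons share 5.65% of their bases with the antisense gene C430014B12Rik, and the library kit does not keep strand.

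The epithelial anchoring pair was high in irradiated 1. Col7a1 was at 77.0 and 92.4 CPM without radiation, then 149.9 and 67.5 CPM in irradiated 1 and 2. Col17a1 was at 18.2 and 19.5 CPM, then 41.8 and 17.6 CPM. In irradiated 2 both lay below the unirradiated libraries, so the groups overlap. Their log2 fold changes were 0.36 (SE 0.38) and 0.66 (SE 0.41), with edgeR adjusted p of 0.845 and 0.711. Without irradiated 2 these became 0.81 and 1.14, and without irradiated 1 they turned to -0.34 and -0.11.

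**Figure D4:**
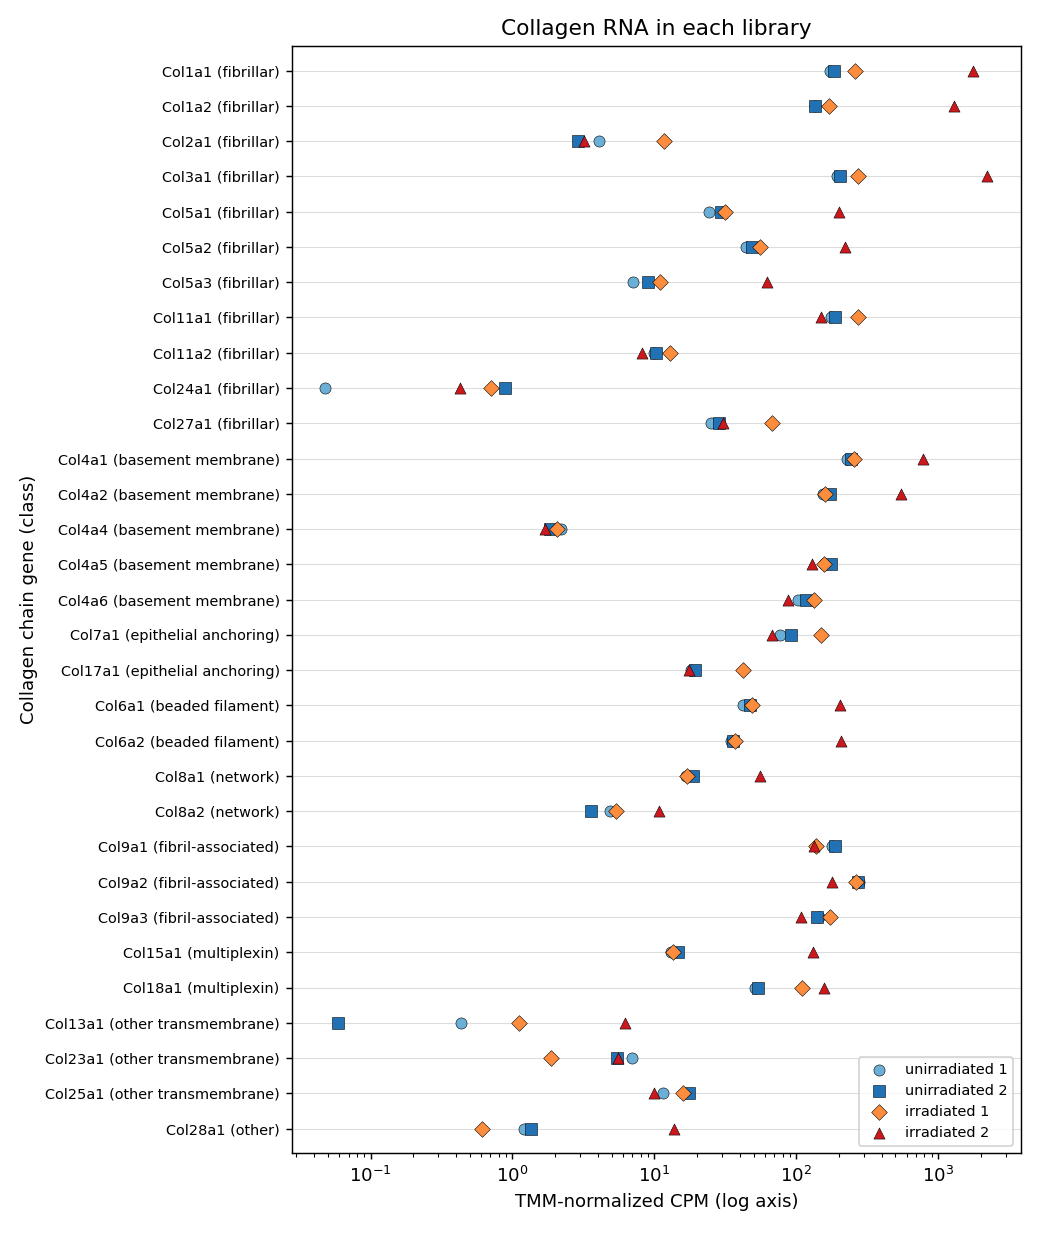
TMM-normalized CPM (log axis) of 31 collagens, grouped by class, with 1 symbol per library. The red triangles of irradiated 2 stand far right for types I, III, V and VI, up to 2224 CPM for Col3a1, and the orange diamonds of irradiated 1 for Col7a1, Col17a1, Col27a1 and Col2a1.

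Most beaded filament and other stromal chains followed the type I pattern. Type VI collagen forms beaded microfilaments around cells. Its chain Col6a1 was at 42.1 and 47.5 CPM without radiation, then 49.1 and 205 CPM in irradiated 1 and 2, and Col6a2 at 34.5 and 36.0 CPM, then 36.9 and 207 CPM. Col6a3 differed from its partners in irradiated 1, at 31.5 CPM against 17.4 and 19.5 CPM, and was at 153 CPM in irradiated 2. The other type VI chains were low, with Col6a6 at 2.72 to 5.65 CPM, Col6a4 at 0.177 to 1.44 CPM and Col6a5 at 0 to 3 counts. Of the network chains, Col8a1, found in vessel walls, was at 16.8 and 18.7 CPM, then 17.1 and 55.7 CPM, and Col8a2 at 4.91 and 3.60 CPM, then 5.35 and 10.7 CPM. Col10a1, of growth cartilage, had 4 to 10 counts.

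Fibril-associated chains divided between those of cartilage-type fibrils and those of stroma. Col9a1 was at 179 and 187 CPM without radiation, then 137 and 133 CPM in irradiated 1 and 2. It was lower by like amounts in both irradiated libraries (log2 fold change -0.44, SE 0.10, edgeR adjusted p = 0.489, DESeq2 adjusted p = 0.0475). Col9a1 was named for its small p, which favors genes whose irradiated libraries are alike. Its partners were lowest in irradiated 2, and Col9a2 also lay slightly below the unirradiated pair in irradiated 1. Col9a2 was at 276 and 271 CPM, then 263 and 179.9 CPM, and Col9a3 at 144 and 141 CPM, then 173 and 108 CPM. Of Col9a3's exon bases 6.07% are shared with Tcfl5 on the opposite strand.

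Col16a1, which joins fibrils to other matrix, was at 147 and 160.4 CPM, then 174 and 151 CPM, above the unirradiated range in irradiated 1 and inside it in irradiated 2. Col14a1 and Col12a1, which decorate type I fibrils, were high in irradiated 2. Col14a1 was at 18.0 and 20.8 CPM, then 22.4 and 145 CPM, and Col12a1 at 35.0 and 37.9 CPM, then 40.1 and 91.4 CPM. Col20a1 was at 4.72 to 5.06 CPM throughout. Col19a1 had 1 to 3 counts and Col22a1 0 to 7. A count of 0 allows up to 3 counts, 0.144 CPM in unirradiated 1 and 0.16 CPM in irradiated 2, where Col22a1 had none.

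Among the multiplexins, basement membrane zone proteoglycans, Col18a1 had the smallest p of all collagens. Col18a1, whose C-terminal fragment is endostatin, was at 51.4 and 53.7 CPM without radiation, then 110.4 and 158 CPM in irradiated 1 and 2. Both irradiated libraries were over 2-fold above both unirradiated ones. The log2 fold change was 1.35 (SE 0.19), with an adjusted p of 0.489 by edgeR and 6.93e-07 by DESeq2. Col15a1, its relative in vessel and muscle basement membranes, was high in irradiated 2 alone, at 13.0 and 14.7 CPM, then 13.5 and 131 CPM.

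The other transmembrane chains and the remaining chains were low by gene length. Col13a1, found at neuromuscular and other cell junctions, had 9 and 1 counts in the unirradiated libraries, 22 in irradiated 1 and 116 in irradiated 2. The groups did not overlap, which the rule that named Col13a1 required. The log2 fold change was 3.80 (SE 1.19, edgeR adjusted p = 0.494, DESeq2 adjusted p = 0.0408). Col23a1 was at 6.98 and 5.43 CPM, then 1.87 and 5.54 CPM, low in irradiated 1 alone. Col25a1 was at 11.5 and 17.5 CPM, then 15.9 and 9.97 CPM. In the unirradiated libraries it ranked 28 among the collagens by gene length and 18 by transcript length. Col28a1, a chain of nerve and skin, was at 1.20 and 1.36 CPM, then 0.605 and 13.8 CPM. Col26a1 had 1, 0, 7 and 5 counts and was not tested.

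Among genes that fold and modify collagen chains, 6 of 20 tested lay above and 0 below (20.3% and 20.0% of all genes). None passed edgeR, 3 had an unadjusted p under 0.05 (9.25% of all genes), and DESeq2 called 3 (2.76% of all genes higher and 0.306% lower) and limma-voom 0. The same shares of all genes hold for the lists that follow. The prolyl hydroxylase gene P4ha2 was at 15.6 and 16.8 CPM without radiation, then 32.7 and 27.6 CPM, and P4ha1, its paralog, at 26.5 and 25.5 CPM, then 39.1 and 44.1 CPM. Unlike the fibrillar chains, both were of like height in the irradiated libraries, with DESeq2 adjusted p of 0.016 and 0.0357. They were named for their small p, which favors genes whose irradiated libraries are alike. Another paralog, P4ha3, was at 1.11 and 1.47 CPM, then 1.56 and 9.44 CPM, the order of the fibrillar chains. Of the 20 genes, 3 were over 2-fold higher in irradiated 2 than in irradiated 1 (11.5% of all genes), P4ha3 among them. P4hb, the shared beta subunit and the most abundant of the list, was at 759 and 718 CPM, then 567 and 743 CPM.

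Of 12 genes of propeptide removal and crosslinking tested, 6 lay above and 1 below (20.3% and 20.0% of all genes). None passed edgeR, 4 had an unadjusted p under 0.05 (9.25%), and DESeq2 called 2 (2.76% higher and 0.306% lower) and limma-voom 0. Bmp1, the proteinase that removes C-propeptides, was at 57.7 and 60.3 CPM without radiation and 98.4 and 142 CPM in the irradiated libraries (DESeq2 adjusted p = 0.000907). The lysyl oxidase relative Loxl3 was at 25.5 and 24.9 CPM, then 35.9 and 37.8 CPM. Loxl1 was at 12.3 CPM in each unirradiated library, then 13.6 and 95.8 CPM, the order of the fibrillar chains.

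Collagen receptor genes were mixed. Of 9 tested 3 lay above and 2 below (20.3% and 20.0% of all genes). None passed edgeR, 3 had an unadjusted p under 0.05 (9.25%), and DESeq2 called 2 and limma-voom 0. Itga11, a fibrillar collagen integrin subunit, was at 1.40 and 0.885 CPM, then 3.08 and 7.94 CPM, and Ddr2, a receptor kinase for fibrillar collagen, at 3.80 and 4.90 CPM, then 8.68 and 24.2 CPM, with DESeq2 adjusted p of 0.0472 and 0.0178. Itgb1, the common beta subunit, was at 344 and 352 CPM, then 331 and 417 CPM.

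Matrix partners were mostly high in irradiated 2. Of 9 tested fibril partners 4 lay above and 0 below (20.3% and 20.0% of all genes). Ogn and Lum, small leucine-rich proteoglycan genes, were at 1.64 and 2.71 CPM, then 3.63 and 24.6 CPM, and at 7.22 and 7.25 CPM, then 10.1 and 65.0 CPM. Sparc, a collagen-binding protein gene, was at 337 and 339 CPM, then 299.9 and 1339 CPM. Of 5 basement membrane partners 1 lay above and 0 below: Hspg2, the perlecan gene, was at 40.2 and 46.6 CPM, then 58.2 and 234 CPM. The nidogen gene Nid1 was at 19.3 and 23.3 CPM, then 22.2 and 179.8 CPM, and Agrn, the agrin gene, at 541 and 589 CPM, then 775 and 476 CPM.

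Of 9 epithelial anchoring partners 4 lay above and 1 below (20.3% and 20.0% of all genes). All 9 were higher in irradiated 1 than in irradiated 2 (45.5% of all genes), as were Col7a1 and Col17a1. Lama3, a chain of laminin-332, was at 9.86 and 13.4 CPM, then 25.9 and 16.4 CPM, and Plec, the plectin gene, at 185 and 237 CPM, then 297 and 269 CPM. The basal keratin gene Krt14 was at 120.4 and 113 CPM, then 228 and 108 CPM. In these 3 partner lists 0 members passed edgeR, and 2 fibril partners, 1 basement membrane partner and 2 anchoring partners had an unadjusted p under 0.05. DESeq2 called 1 fibril partner, Ogn, and 0 of the others, and limma-voom 0.

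Fibroblast and pericyte markers were also high in irradiated 2. Of 9 fibroblast markers 5 lay above and 0 below (20.3% and 20.0% of all genes), and their summed level was 99.8 to 106 CPM without radiation, then 103 and 680.3 CPM in irradiated 1 and 2, a ratio to the unirradiated mean of 1.00 in irradiated 1 and 6.60 in irradiated 2. The fibrillar sum had ratios of 1.43 and 7.30. Pdgfra was at 9.38 and 8.91 CPM, then 11.1 and 33.1 CPM, and Dcn at 52.5 and 47.2 CPM, then 44.2 and 249 CPM. Of 7 pericyte markers 2 lay above (20.3%), with a sum of 190.0 to 209 CPM, then 216 and 376 CPM, at ratios of 1.08 and 1.88. Rgs5 was at 19.97 and 19.5 CPM, then 17.3 and 132 CPM, and Pdgfrb at 8.18 and 8.61 CPM, then 7.11 and 41.5 CPM. No fibroblast or pericyte marker was at 0 in any library. Their part in the collagen values was not tested.

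Of 8 endothelial markers 6 lay above (20.3% of all genes), with a sum of 23.4 to 26.0 CPM, then 42.9 and 760.2 CPM, and Cdh5 was at 3.80 and 4.01 CPM, then 9.58 and 134 CPM. Of 7 macrophage markers 7 lay above (20.3%), with a sum of 16.2 to 18.9 CPM, then 64.1 and 460.3 CPM. Adgre1 was at 0.626 and 0.413 CPM, then 1.77 and 20.8 CPM, and Csf1r at 1.54 and 0.885 CPM, then 6.91 and 68.5 CPM. In irradiated 1 and 2 the ratios to the unirradiated mean were 1.74 and 30.8 for the endothelial sum and 3.65 and 26.2 for the macrophage sum. The part of these cells in the type IV, VIII, XV and XVIII values was not tested. Adipocyte markers were at a sum of 0.236 to 0.433 CPM, then 0 and 1.76 CPM, with Adipoq and Plin1 at 0 in unirradiated 2 and irradiated 1.

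Most basal epithelial markers were not high in irradiated 1. Of 7 markers 1 lay above and 3 below (20.3% and 20.0% of all genes). In irradiated 1, 2 were higher than the unirradiated mean (7936 of all 15993 genes). The median log2 difference there was -0.0036 (-0.0025 over all genes). Their sum was 439 to 452 CPM, then 611 and 428 CPM, and the higher sum in irradiated 1 came from Krt5 and Krt14, which are also among the anchoring partners. Krt5 was at 60.8 and 61.0 CPM, then 149 and 66.8 CPM, while Trp63, the p63 gene, was at 22.7 and 23.4 CPM, then 23.0 and 17.3 CPM. The general epithelial sum was 9683 to 9988 CPM, then 10480 and 8393 CPM, with 1 of 7 above and 3 below (20.3% and 20.0%). Cdh1 was at 510.2 and 503 CPM, then 510.4 and 451 CPM.

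Other cartilage RNAs were low beside the type IX and XI chains. Of 4 cartilage markers Acan, the aggrecan gene, was at 0.118 to 0.96 CPM, Comp at 3.36 to 3.95 CPM and Matn1 at 0 counts in each library. The list's sum was 6.07 to 6.45 CPM without radiation and 6.71 and 6.77 CPM with it, and 1 of its 3 tested members lay above and 0 below (20.3% and 20.0% of all genes).

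**Figure D5:**
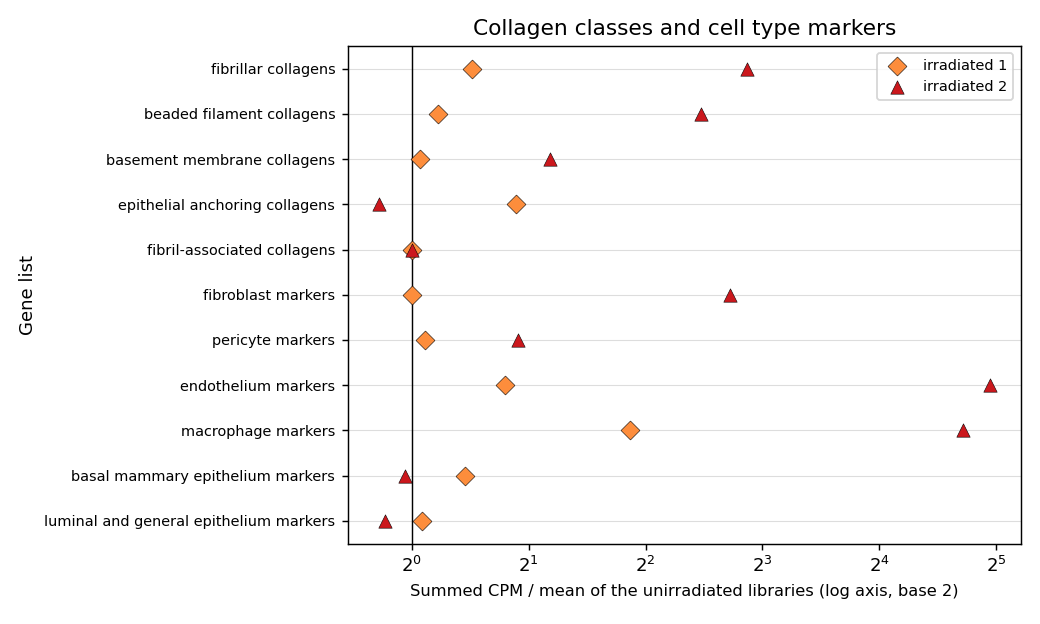
Summed CPM of 5 collagen classes and 6 marker lists in irradiated 1 (diamonds) and irradiated 2 (triangles), divided by the mean of the unirradiated libraries, on a log axis with base 2. In irradiated 2 the fibrillar class is at 7.30. The fibroblast list is there at 6.60, the pericyte list at 1.88, the endothelial list at 30.8 and the macrophage list at 26.2. The anchoring pair stands at 1.85 in irradiated 1 and 0.822 in irradiated 2.

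The sorted gene Dll1 had 130.1 and 129 CPM without radiation, then 146 and 80.2 CPM.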

How the data were processed

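Raw gene counts are what the authors deposited, beside each gene's name, position and length. The tools listed, per the submitters' processing notes, are STAR 2.5, HTSeq 0.6.1 and DESeq2, with build mm10. No source used here states the annotation release or how reads were assigned. Per the labels' protocols the kit keeps no strand. The deposited lengths match the exon union of GENCODE M21 for most collagens, retained introns included, so levels per kilobase of long gene models are understated.

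Sample titles give the groups and replicate numbers. The count model was edgeR 4.0.16 (R 4.3.3): filterByExpr (minimum count 10, minimum total 15), TMM, and a two-sided quasi-likelihood test, adjusted by Benjamini-Hochberg across 15993 genes and a threshold of 0.05. With 2 libraries a side, p = 0.333 is the smallest an exact permutation test allows. Log2 differences of single libraries use log2 CPM with a prior count of 2. A gene lies above or below when both irradiated libraries are on that side of both unirradiated ones. SDs are over 2 libraries. The steps were tested on simulated data.

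Alternatives were other scalings and filters, a replicate block, omission of single libraries, DESeq2 1.42.0, limma-voom (limma 3.58.1) and a threshold of 0.1; transcript length was added after seeing the data. The members, classes, gene lists and motifs were chosen with earlier results of these data known. The naming rule takes fibrillar, type IV and anchoring chains with at least 10 counts in a library, the 2 highest per kilobase of each other class, the 2 collagens with the smallest p on each side, and of each pathway list the 2 with the smallest p and the most abundant per kilobase over the 4 libraries. Other collagens are named to account for every member, and Ptprc, Matn1, Trp63 and P4ha3 were named after their values were seen. One further marker list is not reported here.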

Additional observations from a re-analysis of the deposited data

How the results depend on the processing

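Leaving out 1 library moved the results most, and the cause was not tested. Collagens called by edgeR ranged from 0 to 20 higher and 0 to 8 lower, and all genes from 0 to 2713 higher and 0 to 2355 lower. The calls appeared only without irradiated 1 or without irradiated 2, where the unirradiated pair alone sets the spread. The median log2 fold change ranged from 0.45 to 2.24 for fibrillar chains, from -0.27 to 0.63 for type IV chains (Col4a3 enters unless irradiated 1 is left out) and from -0.23 to 0.98 for the anchoring pair. Of 31 named collagens tested, 14 turned direction with 1 library left out: Col2a1 (-0.14 to 1.73), Col11a1 (-0.28 to 0.58), Col11a2 (-0.31 to 0.35), Col24a1 (-0.64 to 3.38), Col4a2 (-0.0338 to 1.72), Col4a4 (-0.27 to 0.0377), Col4a6 (-0.35 to 0.27), Col7a1 (-0.34 to 0.81), Col17a1 (-0.11 to 1.14), Col8a1 (-0.0700 to 1.64), Col9a3 (-0.41 to 0.27), Col15a1 (-0.0544 to 3.23), Col25a1 (-0.54 to 0.16) and Col28a1 (-1.08 to 3.41). The other named collagens tested kept their direction, among them Col1a1 (0.53 to 3.29), Col3a1 (0.43 to 3.47), Col18a1 (1.06 to 1.57) and Col9a1 (-0.48 to -0.42). Col18a1 and Col9a1 had small p and groups that do not overlap, which favors a stable direction.

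Without a filter edgeR called 20 of 44 collagens higher and 0 lower, and 1338 genes higher and 105 lower. The number of all genes tested without the filter is not given here, so no share stands beside these calls. The median of the type IV chains was 0.55 without a filter and 0.55 by DESeq2, which both add Col4a3. DESeq2 called 2 collagens higher and 1 lower, and 450 genes higher and 50 lower. With the replicate block edgeR called 2 genes higher, 0 lower and 0 collagens. The numbers are not said to pair libraries, and the correlation of replicate differences between the groups was -0.0992 over 15993 genes. Col4a6, at 0.0056, was at -0.0080 with library size alone, -0.0090 without a filter, -0.0242 with the replicate block and -0.0268 by limma-voom. Transcript length, an alternative chosen after seeing the data, changes ratios between chains and is given beside them. Depth limits Col19a1, Col22a1, Col6a5 and Col26a1, at 0 to 7 counts.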

Other observations

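Some ratios between partner chains were nearly level across the 4 libraries, and others were not. By gene length, the Col1a1 to Col1a2 ratio was 2.44 and 2.54 in the unirradiated libraries, 2.88 in irradiated 1 and 2.58 in irradiated 2, and by transcript length 1.16, 1.21, 1.37 and 1.23. In the same order the Col4a1 to Col4a2 ratio was 1.32, 1.26, 1.42 and 1.27 by gene length and 1.45, 1.39, 1.56 and 1.40 by transcript length. The Col11a1 to Col11a2 ratio was 9.51, 9.76, 11.3 and 9.82, or 12.5, 12.8, 14.8 and 12.9. The Col9a2 to Col9a1 ratio was less level, at 2.52, 2.37, 3.15 and 2.21, or 2.02, 1.898, 2.52 and 1.77.

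Partner ratios that differed more were Col5a1 to Col5a2 and Col6a3 to Col6a1. The Col5a1 to Col5a2 ratio was 0.617, 0.682, 0.645 and 1.02 by gene length and 0.430, 0.476, 0.450 and 0.713 by transcript length. The Col6a3 to Col6a1 ratio was 0.151, 0.150, 0.235 and 0.273, or 0.168, 0.166, 0.261 and 0.303. Within type VI the Col6a1 to Col6a2 ratio differed less, at 2.32, 2.51, 2.53 and 1.88, or 1.18, 1.27, 1.28 and 0.952. Between chains of different networks, the Col4a5 to Col4a1 ratio was 0.767, 0.795, 0.681 and 0.185, or 0.698, 0.725, 0.621 and 0.168. The Col9a2 to Col1a1 ratio was 3.36, 3.14, 2.14 and 0.216, or 3.21, 2.999, 2.05 and 0.207. These are descriptions of single libraries, with no test.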
